A study of Mus musculus with 3 samples.

Results

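The genes of DNA replication and S phase were examined in RAW264.7 macrophages, a transformed mouse macrophage line that divides in culture. The set holds 46 genes, chosen by gene name among the 36870 gene names of the arrays with their values in these data already known. The values that chose them were the deposited ratios to unchallenged macrophages and the differences of both strains from LPS, so all of these are given below as a description. RNA was taken from macrophages stimulated with LPS, the lipopolysaccharide of bacterial walls that TLR4 senses, for 3 h, from macrophages given Lactiplantibacillus plantarum LOC1 before the same LPS stimulation, and from macrophages given the strain LOC3 before it. The 3 groups thus share the cell line and the LPS, and differ in the lactobacilli, which were present for 12 h beforehand by the design text and for 24 h by the methods. LPS was used at 50 ng/mL by the methods and at 100 ng/mL by the results. Each group was 1 culture condition on 1 array, so a difference between groups comes here with neither an SD nor a test. The array of the unchallenged cells was not used here.

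A cell copies its DNA once per division. In G1 the origin recognition complex, CDC6 and CDT1 load the MCM helicase onto origins, which is called licensing, and in S phase CDC45 and the GINS complex turn the loaded helicase into an active one. DNA polymerases, the PCNA clamp and its loader RFC then copy both strands. Many genes of this machinery are transcribed together at the G1 to S boundary by E2F factors, whose best known DNA site is a short run of T followed by C and G.

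That site was searched for in the promoters, to show what the genes share beside their values. RefSeq promoters of the mouse build GRCm38.p6, which hold 250 bases before and 50 bases after each start site, were matched by symbol for 38 of the 46 genes. Promoters of Mcm4, Gins1, Gins2, Gins4, Prim2, Pole, Rfc2 and Ccne2 were not matched. An E2F octamer, taken as TTTCCCGC, TTTGGCGC, TTTCGCGC or TTTGCCGC on either strand, was found in 17 of the 38 genes, or 44.7%, and in 2.6% of the 27025 genes with a promoter. It was found too in 41.7% of 12 other E2F, RB and cofactor genes, 27.9% of 43 other replication factors and 25% of 16 repair genes. In genes of mitosis and G2 it was found in 3.57% of 28. Matches on opposite strands can overlap. Stretches upstream of the start site are shown for 6 genes because they hold the octamer, in capitals, and their values are described below.
Mcm6: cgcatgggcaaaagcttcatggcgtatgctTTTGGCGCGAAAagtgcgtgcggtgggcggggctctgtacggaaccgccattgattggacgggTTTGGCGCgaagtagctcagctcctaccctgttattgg
Mcm5: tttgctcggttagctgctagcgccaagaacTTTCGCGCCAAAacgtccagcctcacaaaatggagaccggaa
Cdc6: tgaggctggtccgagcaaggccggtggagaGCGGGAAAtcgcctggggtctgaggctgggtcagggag
Orc1: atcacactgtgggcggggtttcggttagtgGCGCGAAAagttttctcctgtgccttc
Uhrf1: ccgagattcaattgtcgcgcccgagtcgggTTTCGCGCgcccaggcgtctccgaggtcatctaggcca
Rfc3: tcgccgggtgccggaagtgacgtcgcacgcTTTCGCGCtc

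The stretch of Mcm6 lies at chr1:128359715-128359845 on the minus strand and holds 3 octamers, of which the first and the second overlap on opposite strands. The stretch of Mcm5, at chr8:75109326-75109397 on the plus strand, holds 2 octamers that overlap in the same way. The others hold 1 octamer each. They lie at chr11:98907983-98908050 on the plus strand for Cdc6, at chr4:108579397-108579453 on the plus strand for Orc1, at chr17:56304098-56304165 on the plus strand for Uhrf1 and at chr5:151651209-151651248 on the minus strand for Rfc3. In Cdt1 the octamer TTTGGCGC begins 33 bases after the start site. The GC box GGGCGG, searched on both strands, was found in 78.9% of the 38 genes and in 38.2% of all genes, and the CCAAT box in 63.2% and 41.1%. In genes of mitosis and G2 the shares of these 2 boxes were 71.4% and 78.6%, and in other replication factors 81.4% and 48.8%. The cell cycle homology hexamers TTTGAA and TTTAAA, known from promoters of mitotic genes, were found in 28.9% of the 38 genes, in 30.6% of all genes and in 78.6% of 28 genes of mitosis and G2 matched in the same table. A match is a run of letters in these windows and not a measured binding site.

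Each array carried 56605 probes, of which 47.8% to 51.9% were well above background, and no spot was saturated. The arrays shared 1 slide and 1 scan. All 12 macrophage markers examined, such as Csf1r and Cd68, were well above background on the 3 arrays, while 4 of 7 fibroblast, 4 of 6 T cell, 2 of 5 B cell and 1 of 5 epithelial markers were so on at least 1 array. With LOC1 + LPS and LOC3 + LPS, 8 and 7 of the 12 macrophage markers lay below LPS, with medians of -0.13 and -0.05 and 1 past 2-fold. That gene was Fcgr3, at -1.65 and -1.42, and Csf1r lay at -0.89 and -0.70 and Spi1 at -0.52 and -0.46. Their part in the results below was not tested. Each array was scaled by its 75th percentile, an intensity of 555 with LPS, 513 with LOC1 + LPS and 516 with LOC3 + LPS. Intensities are printed below before that scaling and log2 differences after it. A gene was read from its brightest probe. Spot noise alone, from probes printed 10 times per array, gave a technical SD of a log2 difference of 0.06 in bright probes and 0.31 in dim ones, and it leaves out the spread between cultures. Cdc6, Cdc45, Prim2, Pola2, Pole2 and Slbp were dim in this sense, with a mean signal over 1 log2 unit under the percentile, and 39 genes were bright. In RNA from a whole culture, fewer cells in S phase and less RNA per cell cannot be told apart.

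The first comparison asks how LPS alone moved the replication genes. In the authors' log2 ratios to unchallenged macrophages, which leave out values under 2-fold, 38 of the 46 genes were lower with LPS and 0 were higher. Of all gene names, 8.66% were listed lower and 9.7% higher. Because these ratios were among the values that chose the set, nothing is read from that contrast. For 37 genes the brightest probe in the authors' table carried a ratio, with a median of -1.77 on the log2 scale and a range from -4.20 for E2f2 to -1.003 for Gins4. In 11 of the 42 genes in that table this probe was not the brightest one of the array, which is used for the strains below and was not in that table. These genes were Orc1, Cdc6, Mcm7, Mcm10, Cdc45, Gins2, Gins4, Tk1, E2f2, Cdc25a and Slbp. Just outside the threshold lay Cdc25a, whose blank cell was rebuilt from the intensities as -0.96, and the brightest probe of Prim2, at -0.94, which counted among the 38 through a dimmer probe at -1.53. The authors' table did not list any probe of Gins3, Pcna, Rfc3 and Tyms, and for Cdc25a, Mcm10, Pola1 and Pola2 it listed a ratio only with a strain.

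Among the lowest ratios with LPS were those of regulators of the G1 to S step and of enzymes of nucleotide supply. E2f2, an activator E2F, was at -4.20, read from its dimmer probe, and its paralogue E2f1 was at -2.40. Ccne1, the cyclin E that activates CDK2, was at -2.56. Ccne2 was listed at -1.72, but the signal of its probe was near background on each array, so that ratio gives a direction and no size. Among the nucleotide enzymes, Rrm2, the regulated subunit of ribonucleotide reductase, was at -2.59, and Tk1, the thymidine kinase of S phase, at -2.45. Rrm1, the large subunit of the same reductase, stood at -1.15.

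All 10 licensing genes were listed lower with LPS, with a median of -1.79. Cdc6, which loads the helicase together with CDT1, was lowest at -3.55, again read from its dimmer probe. Cdt1 itself was at -1.94, Orc1, a subunit of the origin recognition complex, at -1.81, and Orc6 at -1.16. Of the subunits of the MCM helicase, Mcm2, Mcm3, Mcm4, Mcm5 and Mcm6 ran from -1.88 for Mcm2 to -1.38 for Mcm5. The ratio of Mcm7, -2.18, came from a dim probe, and its brightest probe had no ratio.

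Those genes of the fork that were listed lower with LPS spread over a wide range. Mcm10, Gins3, Pola1, Pola2, Pcna and Rfc3 had no listed ratio with LPS. The GINS subunits Gins1 and Gins2 were at -1.63 and -1.82, and Cdc45, their partner on the helicase, was at -1.10. Of the polymerases, Pole2, a subunit of the leading strand enzyme, was lowest at -2.19 and Pold1, the catalytic subunit of the lagging strand enzyme, followed at -1.77. Pole, the catalytic partner of Pole2, was at -1.14, and Prim1, the primase that starts each fragment, at -1.29. The clamp loader genes Rfc2, Rfc4 and Rfc5 lay between -1.31 and -1.02. The genes that finish and protect new strands were close together, at -1.43 for the flap nuclease Fen1, -1.22 for the ligase Lig1, -1.37 for Rpa1 and -1.28 for Rpa2, which coat single-stranded DNA. The 5 genes that restore chromatin behind the fork or handle histone mRNA lay between -2.55 and -1.95. Uhrf1, which reads hemimethylated DNA, was at -2.55, the methyltransferase Dnmt1 at -2.10, the histone chaperones Chaf1a and Chaf1b at -2.16 and -2.21, and Slbp, which binds histone mRNA, at -1.95.

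Of the 46 genes, 38 were listed lower with LOC1 + LPS and 40 with LOC3 + LPS, again with 0 listed higher, and 35 were listed lower in all 3 groups. Of all gene names 11.6% were listed lower with LOC1 + LPS, 12.1% lower with LOC3 + LPS, and 5.92% lower in all 3 groups, while 4060 and 4111 of them were listed higher with the strains. As with LPS alone, nothing is read from these counts. The ratios of the 3 groups share the unchallenged reference. Cdt1 and Gins4 were listed lower with LPS and with neither strain, and Cdc45 was listed lower with LPS and LOC3 + LPS. For Cdt1 the ratio went from -1.94 with LPS to a rebuilt -0.54 with LOC1 + LPS and -0.77 with LOC3 + LPS. In the other direction, Rrm2 went from -2.59 to -3.41 and -3.54, and Tk1 from -2.45 to -3.48 and -3.72. For Tk1 that is 5.47-fold lower than unchallenged cells with LPS, and 11.1-fold and 13.2-fold lower with the strains.

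**Figure D1:**
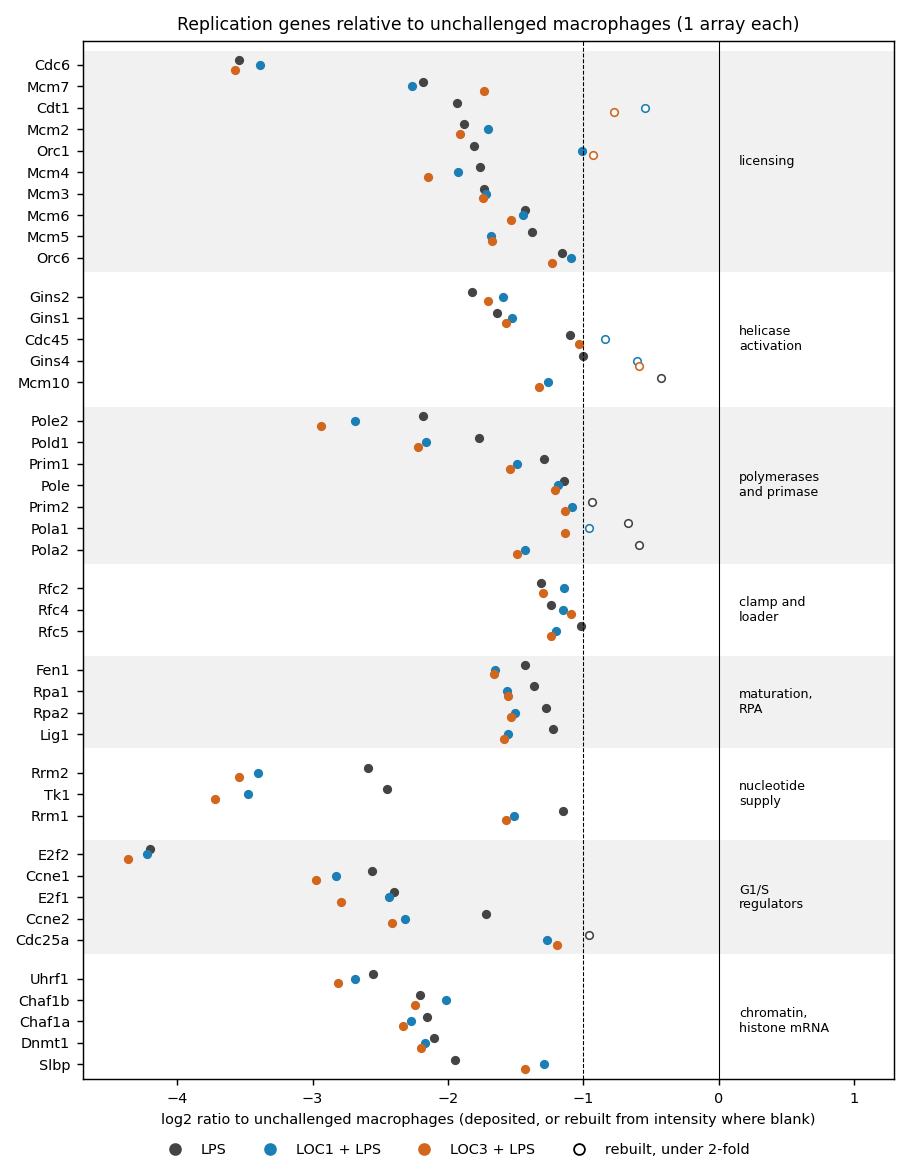
Log2 ratio to unchallenged macrophages on the x axis for the 42 genes in the authors' table, grouped by role, with 1 point per array: LPS in grey, LOC1 + LPS in blue and LOC3 + LPS in orange. Filled points are listed ratios, open points are blanks rebuilt from intensities, and the dashed line marks 2-fold. Nearly every point lies left of -1, and Cdt1 is the gene whose strain points lie farthest to the right of its LPS point.

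The next comparisons ask how the strains moved the same genes relative to LPS alone. Of 45 genes measured, with Ccne2 left out as not well above background, 1 was higher by 2-fold or more and 1 was lower by as much with each strain, Cdt1 and Tk1 both times. Among all 20019 genes measured for LOC1 + LPS, 2.49% passed 2-fold upwards and 3.81% downwards, and among 19790 genes for LOC3 + LPS 2.98% and 3.18%. The shares for the 45 genes are close to these. At 1.5-fold, 4 genes lay higher and 3 lower with LOC1 + LPS, beside 7.69% and 11.4% of all genes, and 4 higher and 4 lower with LOC3 + LPS, beside 7.81% and 9.49%.

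The median difference from LPS over the 45 genes was -0.10 with LOC1 + LPS and -0.20 with LOC3 + LPS on the log2 scale, beside 0.00 and 0.03 over all genes. Below 0 were 28 of 45 genes with LOC1 + LPS, beside 49.9% of all genes, and 32 of 45 with LOC3 + LPS, beside 46%. The sign of these medians depends on the scaling. With each array scaled to its median intensity, every difference was 0.22 higher with LOC1 + LPS and 0.20 higher with LOC3 + LPS, the set's medians became 0.12 and -0.000702, and those of all genes 0.22 and 0.23. The set thus stood 0.10 and 0.23 under the median of all genes with either scaling.

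**Figure D2:**
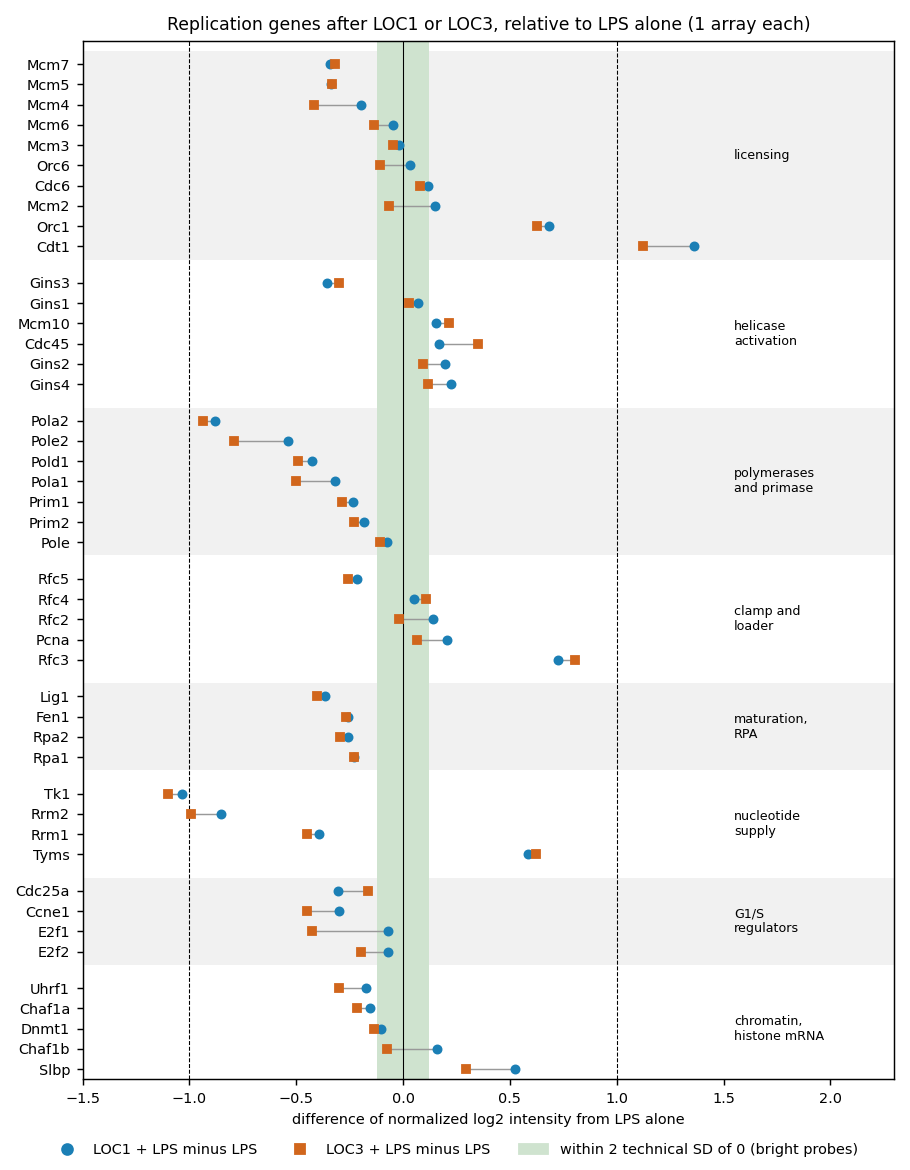
Difference of the normalized log2 intensity from LPS alone on the x axis for 45 genes grouped by role, with LOC1 + LPS as blue circles and LOC3 + LPS as orange squares, 1 array per condition. Dashed lines mark 2-fold and the green band marks 2 technical SD of bright probes. Most genes lie within 2-fold, Cdt1 passes it to the right and Tk1 to the left with both strains, and the polymerase genes, by their brightest probes, lie left of 0.

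Among the licensing genes, Cdt1 stood apart. Its intensity was 6359 with LPS, 15111 with LOC1 + LPS and 12895 with LOC3 + LPS. Both strain arrays lay far above the LPS array, a difference of 1.36 or 2.57-fold with LOC1 and of 1.12 or 2.18-fold with LOC3. The gene had 1 probe, which lies at chr8:125096893-125096952 of mm9, so no other probe could be set beside it. Orc1 had 222 with LPS, 330 with LOC1 + LPS and 319 with LOC3 + LPS, a difference of 0.68 and 0.63, and its other RefSeq probe gave 0.77 and 0.84. A dim probe to another Orc1 transcript, with 32.7, 21.4 and 15.3, went the other way, by -0.50 with LOC1 + LPS and at least 1.53-fold lower with LOC3 + LPS, where it was not well above background. Both the -0.50 and that bound lie within the 0.63 that is 2 technical SD for dim probes. The probes of Orc1 thus differed in sign, but the sign of the dim one is not clear of spot noise. CDT1 and ORC1 act in the same step, in which the origin recognition complex receives the helicase that CDT1 delivers.

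The rest of the licensing genes lay within 1.5-fold of LPS. Cdc6, which works with both, had 173, 174 and 170 on the arrays with LPS, LOC1 + LPS and LOC3 + LPS, a difference of 0.12 and 0.08. The MCM subunits ranged from -0.34 for Mcm7 to 0.15 for Mcm2 with LOC1 + LPS, and from -0.42 for Mcm4 to -0.05 for Mcm3 with LOC3 + LPS. Mcm6 had 22338, 19971 and 18896 on the same arrays, a difference of -0.05 and -0.14. Mcm5 had 5964, 4372 and 4412, a difference of -0.34 and -0.33. The subunits of the ring thus differed among themselves, and none reached 1.5-fold from LPS. Orc6, with 0.03 and -0.11, lay within 2 technical SD of LPS.

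Genes that activate the loaded helicase lay slightly above LPS, with a median of 0.16 for LOC1 + LPS and 0.10 for LOC3 + LPS over 6 genes. Those values hold for scaling by the 75th percentile. The medians lay above that of all genes also with quantile normalization and normexp. Mcm10, which helps to start unwinding, had 8621, 8872 and 9320 with LPS, LOC1 + LPS and LOC3 + LPS, a difference of 0.15 and 0.22. Cdc45 differed by 0.17 and 0.35, within the 0.63 that is 2 technical SD for a dim gene, and its other RefSeq probe gave 0.23 and 0.03. Gins2 differed by 0.20 and 0.09, Gins4 by 0.23 and 0.12 and Gins1 by 0.07 and 0.03. Gins3 was the member of this group that lay below LPS, with 8415, 6077 and 6352 and a difference of -0.36 and -0.30. The 4 subunits of the GINS complex thus lay on both sides of LPS.

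The polymerase and primase genes lay below LPS in 7 of 7 cases with each strain, with medians of -0.32 and -0.49. Their medians lay below that of all genes also with quantile normalization and normexp. Read from RefSeq probes alone, 6 of 7 lay below LPS, with medians of -0.23 and -0.29, since Pola2 then lay at 0.05 and 0.03. Pole2 had 354 with LPS, 226 with LOC1 + LPS and 190 with LOC3 + LPS, a difference of -0.54 and -0.79, of which the second passes the 0.63 that is 2 technical SD for a dim gene. Pold1 had 2023, 1390 and 1339 on those arrays, a difference of -0.43 and -0.49. Pola1, the catalytic subunit of the polymerase that extends each primer, had 1836, 1359 and 1207, a difference of -0.32 and -0.50. In each of these genes the LOC3 array was the lowest of the 3. Prim1 and Prim2, both subunits of primase, differed by -0.23 and -0.18 with LOC1 + LPS and by -0.29 and -0.23 with LOC3 + LPS. Pole, with -0.08 and -0.11, lay closest to LPS, so the catalytic subunit and the smaller subunit of the same enzyme differed in size. Pola2 came just under 2-fold, at -0.88 and -0.94, but that value depended on the probe, as given below.

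Among the clamp and its loader, Pcna and most loader genes lay within 1.5-fold of LPS. Pcna, the sliding clamp, had 19792 with LPS, 21134 with LOC1 + LPS and 19298 with LOC3 + LPS, a difference of 0.21 and 0.07. Rfc3 was the exception, with 1398, 2136 and 2274 on those arrays and a difference of 0.72 and 0.81. Its other probe gave 0.63 and 0.63, so both probes placed it 1.5-fold or more above LPS. The other subunits that form the loader with it stayed closer to LPS, at 0.14 and -0.02 for Rfc2, 0.05 and 0.11 for Rfc4 and -0.22 and -0.26 for Rfc5.

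The genes that finish and protect new strands lay below LPS in 4 of 4 cases with each strain, by similar amounts. Their median lay below that of all genes also with quantile normalization and normexp. Fen1 had 9531 with LPS, 7363 with LOC1 + LPS and 7361 with LOC3 + LPS, a difference of -0.26 and -0.27. Lig1 differed by -0.37 and -0.40, Rpa1 by -0.23 and -0.23 and Rpa2 by -0.26 and -0.29.

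Nucleotide supply was the group with the largest SD across its genes, 0.73 with LOC1 + LPS and 0.79 with LOC3 + LPS. Tk1 had 1725 with LPS, 779 with LOC1 + LPS and 748 with LOC3 + LPS, so both strain arrays lay well under the LPS array, by 2.05-fold and 2.15-fold or -1.03 and -1.10 on the log2 scale. The probe lies at chr11:117676845-117676904 of mm9 on the minus strand, and the other 2 detected probes of the gene gave -1.06 and -0.99 with LOC1 + LPS and -1.31 and -1.32 with LOC3 + LPS. With arrays scaled to their median Tk1 came to -0.81 and -0.90, inside 2-fold. Rrm2 had 3860, 1976 and 1803, a difference of -0.85 and -0.99, which places it just inside 2-fold. Rrm1 had 3565, 2510 and 2426, a difference of -0.39 and -0.45. Both subunits of ribonucleotide reductase therefore lay under LPS with both strains, the regulated one by more. Tyms, which makes thymidylate from deoxyuridylate, lay on the other side of LPS, with 7018, 9743 and 10060 and a difference of 0.59 and 0.62. Its other RefSeq probe gave 0.62 and 0.64, and a probe to another transcript, with 466, 567 and 457, gave 0.39 and 0.07. The 2 routes to thymidylate, by salvage through TK1 and by synthesis through TYMS, thus differed from LPS in opposite directions at the RNA level, with Tk1 past 2-fold and Tyms past 1.5-fold with both strains by their brightest probes.

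The regulators of the G1 to S step lay below LPS in 4 of 4 measured cases with each strain, with medians of -0.18 and -0.31, which became 0.04 and -0.12 when arrays were scaled to their median. E2f1 had 747 with LPS, 658 with LOC1 + LPS and 517 with LOC3 + LPS, a difference of -0.07 and -0.43. E2f2 differed by -0.07 and -0.20 and Ccne1 by -0.30 and -0.45. Cdc25a, the phosphatase that activates CDK2, had 3508, 2629 and 2916 on the same arrays, a difference of -0.30 and -0.16. E2f2, the gene with the lowest ratio to unchallenged cells, thus lay within 1.5-fold of its level with LPS alone in both strain groups.

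In the chromatin group, Slbp lay highest, with 164, 218 and 187 with LPS, LOC1 + LPS and LOC3 + LPS and a difference of 0.52 and 0.29. It is a dim gene, for which 2 technical SD come to 0.63. Uhrf1 had 4860, 3992 and 3671, a difference of -0.17 and -0.30. Chaf1a differed by -0.15 and -0.22, Dnmt1 by -0.10 and -0.14, and Chaf1b by 0.16 and -0.08. None of the 5 reached 1.5-fold.

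The strains were also set against each other. No gene of the 45 differed by 2-fold between LOC1 + LPS and LOC3 + LPS, beside 0.8% of all genes higher and 1.83% lower with LOC1. None differed by 1.5-fold, beside 2.04% of 19382 genes higher and 3.75% lower with LOC1. With shares this small, few or none of 45 genes would pass, so nothing is read from these counts. Beyond 2 technical SD, 13 genes lay higher and 1 lower with LOC1, and 31 lay within. The median of LOC1 minus LOC3 was 0.06, beside -0.02 for all genes, and 10 of 45 genes lay below 0, beside 55% of all genes. The range ran from -0.18 for Cdc45 to 0.36 for E2f1. Cdt1 differed by 0.24, Pole2 by 0.26 and Chaf1b by 0.24, all higher with LOC1.

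Other gene lists were described in the same way, to place the 45 genes among their neighbours in the cell cycle. Genes of mitosis and G2 lay lower with both strains, with a median of -0.60 with LOC1 + LPS and -0.65 with LOC3 + LPS over 34 genes, below 0 in 34 and 33 of them. Their median lay under 0 with each scaling, and under that of all genes also with quantile normalization and normexp. Only 1 and 2 of them lay at least 2-fold lower, while 18 and 22 lay at least 1.5-fold lower, or 52.9% and 64.7%. At 1.5-fold that stands beside 11.4% and 9.49% of all genes, and 6.67% and 8.89% of the 45 replication genes. The counts at 1.5-fold fall with median scaling, which raised every difference by 0.22 and 0.20. Kif11, a motor that separates spindle poles, had 348, 140 and 134 with LPS, LOC1 + LPS and LOC3 + LPS, a difference of -1.20 and -1.28. Nuf2, of the kinetochore, differed by -0.99 and -0.92, and Kif23, a motor of cytokinesis, by -0.89 and -1.01. In the ratios to unchallenged macrophages, 12 of 34 mitotic genes were listed lower with LPS alone, beside 8.66% of all gene names. With each strain 27 of 34 were listed lower, beside 11.6% and 12.1% of all gene names. No order between mitotic and replication genes is read from these ratios, since they were among the values that chose the set. Whether the 2 lists differ relative to LPS was not tested, since the groups hold 1 array each and those differences also chose the set.

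Replication factors outside the set lay around LPS, with medians of 0.07 and 0.00 over 53 genes. Fbxo5, an inhibitor of the anaphase-promoting complex, had 961, 291 and 311 with LPS, LOC1 + LPS and LOC3 + LPS, a difference of -1.61 and -1.53. Recql4, a helicase of origin firing, lay at 1.02 and 0.65, and Timeless, which steadies the fork, at 0.97 and 0.99. Chosen after their values were seen, Gmnn, the inhibitor of CDT1, and Dtl, which marks CDT1 for degradation, had ratios of -3.38 and -3.64 to unchallenged cells with LPS. Gmnn differed from LPS by 0.09 and -0.11 and Dtl by 0.54 and 0.33, and neither reached 1.5-fold. Of these 53 factors 29 were listed lower and 3 higher with LPS.

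The 22 genes of replication-linked repair lay close to LPS, with medians of -0.04 and -0.04 and 0 past 1.5-fold. The other E2F, RB and cofactor genes had medians of -0.07 and -0.10 over 17 genes, and E2f7, a repressor E2F, lay at -0.60 and -1.06. Among regulators of G1, Cdkn2c, an inhibitor of CDK4 and CDK6, had 140, 64.5 and 50.3 on the 3 arrays, a difference of -1.01 and -1.38, and Ccnd1, the cyclin D1 that activates those kinases, lay at 0.93 and 0.79. Myc, which drives growth and entry into S phase, lay at 0.71 and 0.54. Of 15 p53 targets, the kinase gene Plk2 lay at 1.79 and 1.45 and Sesn1 at -1.05 and -1.03. Perp was well above background with LOC3 + LPS alone, at least 1.42 above LPS on the log2 scale. Cdkn1a, named after its values were seen as the p53 target that inhibits CDK2, had 19259, 19769 and 20777, a difference of 0.15 and 0.21. The housekeeping genes Actb and Gapdh differed by 0.03 and 0.26 with LOC1 + LPS and by 0.08 and 0.31 with LOC3 + LPS.

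**Figure D3:**
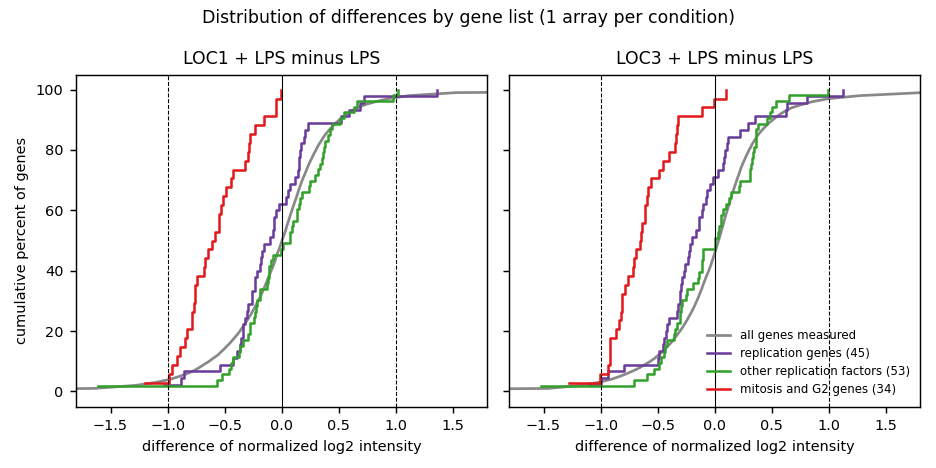
Cumulative percent of genes (y axis) against the difference of normalized log2 intensity from LPS (x axis), for LOC1 + LPS at left and LOC3 + LPS at right. Grey is all genes measured, violet the 45 replication genes, green 53 other replication factors and red 34 genes of mitosis and G2, which lie to the left of the others with a median of -0.60 and -0.65.

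Several genes were read by more than 1 probe, and the probes did not always agree. The 46 genes had 89 probes, of which 78 were well above background on all arrays, and 66 list a RefSeq mRNA while 23 list other transcripts only. Among 19 genes with more than 1 detected RefSeq probe the median range between probes was 0.05 with LOC1 + LPS and 0.14 with LOC3 + LPS, and the widest were 0.40 for Uhrf1 and 0.73 for Mcm7, each with a dim probe. In 11 genes detected probes of both kinds could be compared, and the other kind was lower than the RefSeq kind in 7 of 11 with each strain.

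Pola2 shows the widest gap. Its RefSeq probe had 172 with LPS, 165 with LOC1 + LPS and 164 with LOC3 + LPS, a difference of 0.05 and 0.03. The 2 probes to another transcript named Pola2 had 335, 169 and 163, and 346, 132 and 124, which is -0.88 and -1.28 with LOC1 + LPS and -0.94 and -1.37 with LOC3 + LPS. The annotated mRNA therefore did not differ from LPS beyond spot noise, while the probes to the other transcript did. A dim probe to a further transcript, with 23.8 with LPS and 29.7 with LOC1 + LPS, lay at 0.43, and with LOC3 + LPS it was not well above background. In Mcm10 the RefSeq probe gave 0.15 and 0.22 and the other probe, with 353, 179 and 172, gave -0.87 and -0.94. In Rpa1 the RefSeq probe gave -0.23 and -0.23 and the other -0.81 and -0.77. In Slbp the mean of the RefSeq probes was 0.57 and 0.39, and the other probe gave -0.04 and -0.36. What these other transcripts are was not tested.

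**Figure D4:**
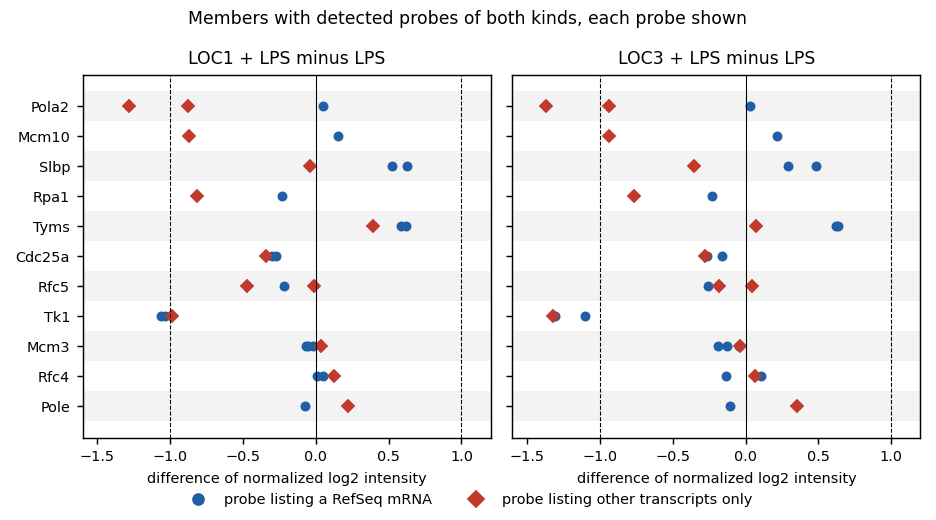
Difference of normalized log2 intensity from LPS (x axis) for every probe well above background on all 3 arrays in the 11 genes with probes of both kinds, LOC1 + LPS at left and LOC3 + LPS at right. Blue circles list a RefSeq mRNA and red diamonds list other transcripts only; in Pola2, Mcm10, Rpa1 and Slbp the diamonds lie to the left of the circles, and in Tk1 all probes lie together near -1.

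The genes were finally split by the octamer. The 17 genes with an octamer, such as Mcm6, Mcm5, Cdc6, Orc1, Uhrf1 and Rfc3 above, had a median ratio to unchallenged cells of -1.81 with LPS over the 15 of them in the authors' table, blanks rebuilt, and the 21 genes with a matched promoter and no octamer had -1.37 over 19. Relative to LPS the medians were -0.17 and -0.15 with LOC1 + LPS and -0.20 and -0.23 with LOC3 + LPS. Genes farthest from LPS stood on both sides of the split, Cdt1, Orc1 and Rfc3 with an octamer and Tk1, Rrm2 and Tyms without one. The absence of these letters from a window says nothing about the binding of a factor.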

How the data were processed

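RNA from 3 conditions of RAW264.7 cells was measured on 1-colour Agilent mouse arrays, 1 array each. The authors deposited the intensity of each spot, background-corrected by Feature Extraction 12.0.3.1 per the file headers, and, for 13135 probes, log2 ratios of each array to unchallenged macrophages, blank under 2-fold. All 12935 blanks, rebuilt from the intensities after 1 constant shift per column, lay under 2-fold. The submitters' processing notes name R 3.2.5 and limma.

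Here, outlier and control spots were left out, spots of a probe averaged on the log2 scale, and each array scaled by its 75th percentile over spots. Differences were taken where 1 or both arrays compared were well above background, a dimmer signal being raised to the lowest signal well above background. A gene past 2-fold counted as changed, without a test. The genes and lists were chosen with earlier results of these data known. All 46 genes are named, with intensities for those past 2-fold, the brightest of each role and others with a large difference or disagreeing probes; from other lists some genes past 2-fold or among the 3 largest are named. The procedure was tested on simulated arrays with planted changes. Probe positions are those of mm9, and all 66 RefSeq probes matched the same symbol in the RefSeq table. Python 3.11.15, numpy 2.4.6, pandas 2.3.3, matplotlib 3.10.9 and limma 3.58.1 were used. Alternatives were median and quantile scaling, percentiles over other probes, normexp with an offset of 50, other filters, probe summaries and thresholds, and the deposited ratios. The t-test of the methods needs replicates.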

Additional observations from a re-analysis of the deposited data

How the results depend on the processing

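With 1 array per condition no array could be left out. No paired analysis was possible because each group holds 1 array. The number of genes past 2-fold for LOC1 + LPS against LPS was 2, and became 1 with median scaling, 1 with normexp, 7 at 1.5-fold, 0 at 3-fold and 5 with probes in place of genes. For LOC3 + LPS against LPS it was 2, and became 8 at 1.5-fold, 0 at 3-fold, 5 with probes and 1 in the deposited ratios. With median scaling the median difference became 0.12 with LOC1 + LPS and -0.000702 with LOC3 + LPS, and the calls of all genes were 4.45% higher and 2.32% lower with LOC1 + LPS and 4.5% higher and 1.90% lower with LOC3 + LPS, which turns the split of the main scaling, 39.6% and 48.4% of calls higher, to 65.7% and 70.3%. Cdt1 stayed between 1.32 and 1.58 with LOC1 + LPS and between 1.03 and 1.32 with LOC3 + LPS. Tk1 ranged from -1.08 to -0.81 and from -1.27 to -0.90, so it lost the 2-fold call with median scaling, and with normexp for LOC1 + LPS. Rrm2 ranged from -1.05 to -0.80 with LOC3 + LPS and passed 2-fold with quantile normalization and with the percentile over probes detected on all arrays. With median scaling Rfc3 passed 2-fold with LOC3 + LPS, at 1.003, while Tk1 no longer did, so the count of 2 held other genes. Pola2 ranged from -0.92 to 0.05 with LOC1 + LPS and lay at 0.05 from its RefSeq probe. That alternative and the percentile over probes were added with the data in view. LOC1 against LOC3 and the deposited LPS column, with 38 genes or 51 probes, kept their counts within 1.5 times. No gene past 2-fold changed sign.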
